A study of Oryza sativa with 32 samples.

Results

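The genes described here encode transcription factors of 5 plant families, WRKY, NAC, MYB, bHLH and bZIP, in rice (Oryza sativa cv. Nipponbare). They were taken by name. A gene entered when its symbol or a synonym in the rice gene table began with WRKY, NAC, SNAC, MYB, bHLH or bZIP followed by a digit, and MPH1, a MYB gene, was added. Of 57 such genes, 50 had at least 1 probe set on the array, and 7 had none. They are 50 of the 17905 genes with a probe set of their own, and they had 62 of the 57194 probe sets other than controls. There were 7 WRKY probe sets for 6 genes, 13 NAC probe sets for 8 genes, 8 MYB probe sets for 6 genes, 15 bHLH probe sets for 12 genes and 19 bZIP probe sets for 18 genes. Rice has many more genes of these families, so the 50 are those that carry a family number in this annotation and do not stand for whole families.

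WRKY proteins bind W-box elements, and many act in defence and in hormone signalling. NAC proteins are specific to plants and include regulators of drought and salt responses, of cell death and of secondary walls. MYB proteins with 1 or more MYB repeats act in stress, sugar and growth responses. bHLH proteins bind E-box elements as dimers, and the named ones include regulators of iron supply, of jasmonate and brassinosteroid responses and of anther development. bZIP proteins bind as dimers to elements with an ACGT core and include the abscisic acid response factors, membrane-bound factors of endoplasmic reticulum stress and the TGA factors, which bind TGACG elements and work with NPR1-type co-regulators.

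Root and shoot RNA came from the 3 transgenic lines (named AGR1/7, AGR1/8, AGR3/8) and from wild type Nipponbare. The construct in each line is OsANT1:HvAlaAT, in which a rice promoter that the labels call root-specific drives alanine aminotransferase of barley, and the lines are described as independent. All plants grew in hydroponics on 5 mM NH4+ at 28 °C, 70% relative humidity, a 14 h day and a 10 h night at 750 µE, and were sampled at mid-day at maximum tillering. Each of the 8 groups had 4 arrays, called biological replicates, which makes 32 arrays, and the level of the transgene itself was not examined.

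Each probe set has 1 intensity per array on a linear scale whose trimmed mean is 100 on every array. Array medians were 14.5 to 17.4 in root and 14.1 to 17.8 in shoot, and 48.3% to 51.6% of root values and 47.7% to 52.3% of shoot values lay under 16. Summed photosynthesis markers (CAB2R, RBCS, PORA and CHLG, 9 probe sets) were 367.1 to 888.6 on root arrays and 25672.2 to 57392.7 on shoot arrays. Summed root markers (LSI1, LSI2, AMT1-2, NRT2 and NAAT1, 6 probe sets) were 9819.2 to 18615.1 on root arrays and 650.5 to 3055.1 on shoot arrays. NAAT1 alone did not separate the tissues in AGR1/7, AGR1/8 and wild type, with means of 1808, 1892 and 1200.2 in root and 2113, 1741 and 1203 in shoot, and had 1536 in root and 761 in shoot of AGR3/8. Replicate 1 of wild type stood apart in both tissues, as described for the members after the tissue comparison, and results that rest on it are given with and without it. Differences are on the log2(intensity + 16) scale with their standard error, and adjusted p-values come from limma with Benjamini-Hochberg adjustment over all 38130 probe sets tested in a fit. A probe set is called where that value is under 0.05. The dimmest 33.3% of probe sets were not tested, which left 53 of the 62 member probe sets in the root fit, 45 in the shoot fit and 53 in the fit of all arrays; 43 passed in both tissues and 7 in neither.

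More members differed between root and shoot than between genotypes. In wild type, 25 member probe sets were higher in root and 6 were lower in root than in shoot, 31 of 53, or 58.5%, beside 59.2% of all probe sets tested (31.9% higher and 27.3% lower). The share called was close to that of the whole array. The bZIP probe sets had 14 higher and 1 lower in root among 18 tested, the WRKY 2 and 0 of 7, the NAC 2 and 3 of 10, the MYB 4 and 2 of 8, and the bHLH 3 and 0 of 10. The median difference was 1.18 over the tested bZIP probe sets and 0.02 over all tested. Of the 18 bZIP probe sets, 4 (bZIP06, 1 of the 2 of bZIP11, bZIP79 and bZIP83) were too dim in shoot for the shoot fit and were tested here through their root level, so they had to be higher in root. The 14 that passed the filter in each tissue had 10 higher and 1 lower and a median of 1.04. Of all 34003 such probe sets 57.1% were called, 10326 higher and 9096 lower, with a median of 0.01. The 3 bHLH calls likewise came from probe sets that did not pass in shoot. Of the 3 NAC probe sets lower in root, 1 (NAC010) did not pass in root and was tested through its shoot level. The 8 NAC probe sets that passed in each tissue had 2 higher and 2 lower. Over all 43 members that passed in each tissue, 18 were higher and 5 lower in root (53.5%), beside the same 57.1%. Bulk tissue was measured, so more cells that express a gene and more transcript per cell cannot be told apart.

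**Figure D1:**
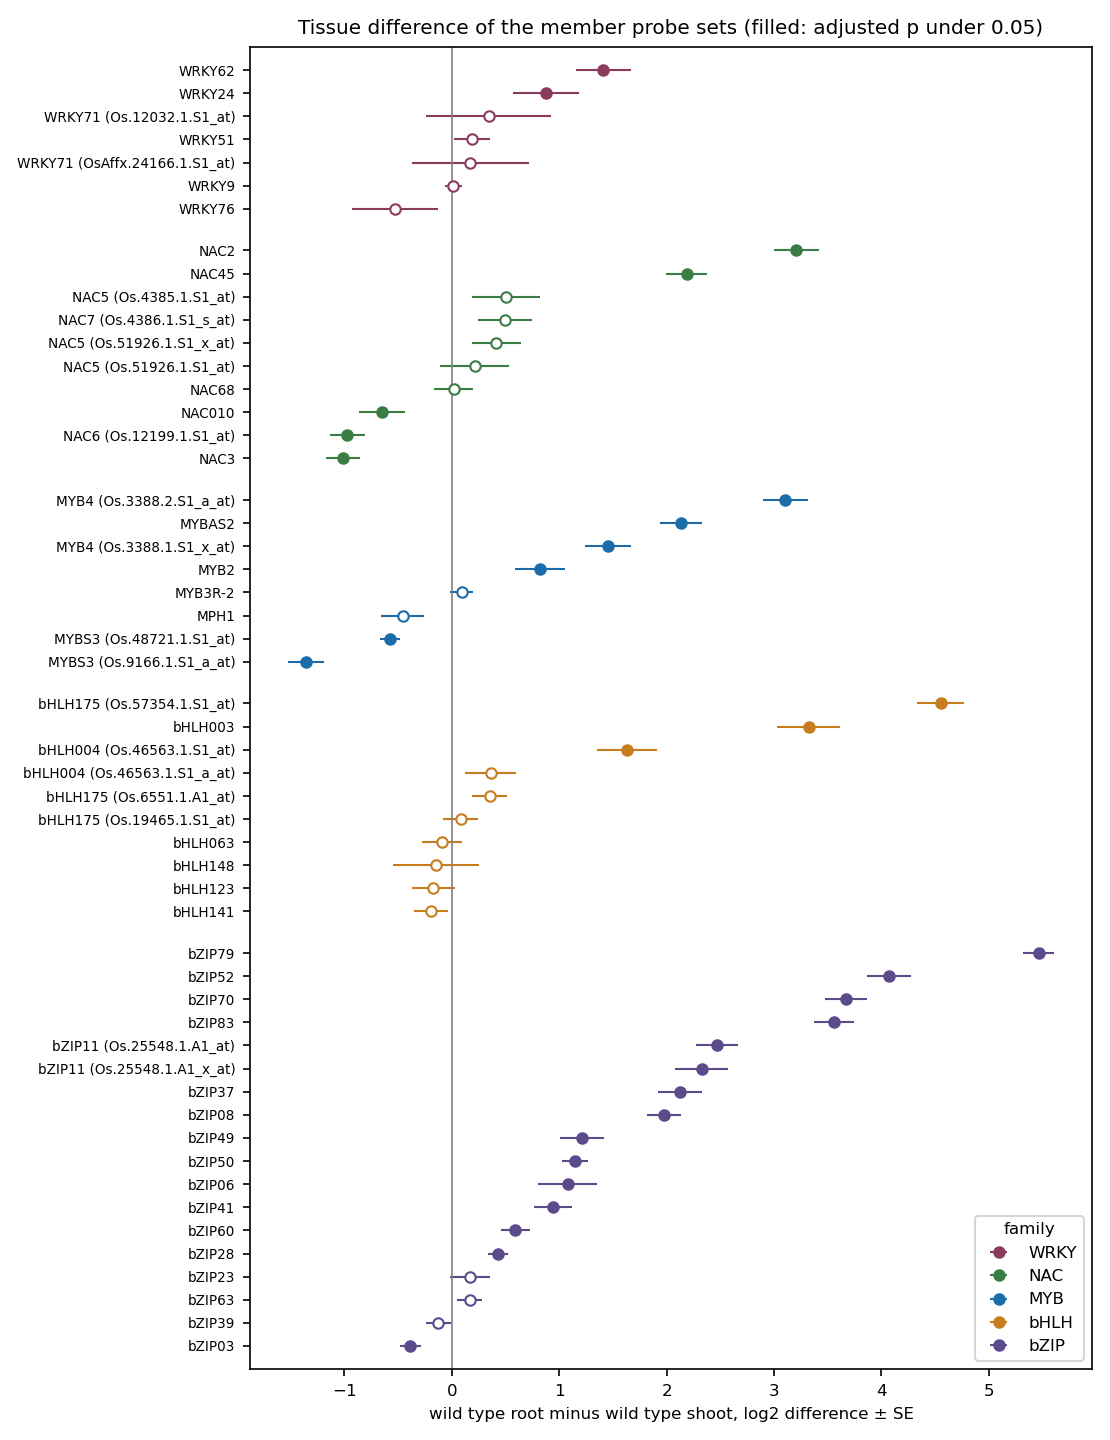
Difference of wild type root minus wild type shoot for the 53 member probe sets tested, on the log2(intensity + 16) scale with the standard error (4 arrays a tissue), by family; filled points have a limma adjusted p under 0.05. The bZIP points lie mostly to the right of 0, up to 5.46 for bZIP79, whose shoot values lie under the added constant, and the NAC and MYB points lie on both sides.

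Among the bZIP factors, bZIP79 was bright in root and below the added level of 16 in shoot. Its intensity was 565, 1109, 795.5 and 981 on the wild type root arrays and 2.7, 4.0, 3.5 and 3.2 on the wild type shoot arrays. Every root array was far above every shoot array. The difference was 5.46 ± 0.14 with adjusted p = 1.09e-24, but its size follows the constant added before the logarithm, with 6.84 for a constant of 4 and 3.74 for 64, and it gives no rank among the members. bZIP52, also known as RISBZ5, had 1069, 592, 554.5 and 630.5 in wild type root against 51.7, 19.5, 21.9 and 17.5 in wild type shoot. Replicate 1 was the highest wild type array of each tissue, the tissues did not overlap, and the difference was 4.07 ± 0.21 (adjusted p = 3.04e-17). bZIP70 and bZIP83, chosen after their values were seen, were at 3.67 and 3.56, and bZIP37 was at 2.12. bZIP11, which carries the name LG2 after the liguleless gene of maize, had 2 probe sets at 2.47 and 2.33 that ran close together. The 1 bZIP probe set that was lower in root was bZIP03, a TGA factor, with 217, 337.5, 256 and 281 in wild type root and 334, 372.5, 371 and 353 in wild type shoot. The second root array reached into the shoot range, the other root arrays lay below it, and the difference was -0.39 ± 0.10 (adjusted p = 0.000868). The brightest bZIP probe set in wild type shoot was bZIP39, a membrane-bound factor of endoplasmic reticulum stress, with 550.5, 646, 500.1 and 561.5 in root and 815, 566, 533 and 580.0 in shoot, and it was not called between tissues. The related bZIP50 and bZIP60, listed with the rest of the called bZIP probe sets after their values were seen, were higher in root, at 1.15 and 0.59. The others were bZIP08 (1.98), bZIP49 (1.21), bZIP06 (1.08), bZIP41 (0.94) and bZIP28 (0.43), of which all but bZIP06 are TGA-type by alias.

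The NAC members split by tissue. NAC2 had 164, 209.8, 163 and 182 in wild type root and 3.7, 1.0, 3.9 and 13.7 in wild type shoot, a difference of 3.21 ± 0.21 (adjusted p = 2.87e-14). The shoot arrays were all under 16 and the root arrays stood clear of them. NAC45, a factor of drought and salt responses, had 288, 164, 256 and 206 in wild type root and 24.0, 44.5, 40.6 and 40.1 in wild type shoot, a difference of 2.19 ± 0.19. All 4 root arrays were higher. NAC3 ran the other way, with 219, 258, 324 and 254 in wild type root and 658, 471, 605 and 463 in wild type shoot, a difference of -1.01 ± 0.16 (adjusted p = 1.4e-06). It was the only probe set called between tissues for which each of the 16 shoot arrays lay above each of the 16 root arrays. NAC6, the stress factor also called SNAC2, had 701, 434, 693 and 513.5 in wild type root and 1269.7, 1093, 1103 and 1105 in wild type shoot on its bright probe set, a difference of -0.97 ± 0.17. The tissues did not overlap in wild type. Its other 2 probe sets reached 23.9 at most on the 32 arrays, so the 3 do not report 1 level. NAC5, a stress factor and the brightest NAC probe set in wild type root, had 312.5, 2121, 1204 and 1989 in root and 919.5, 823, 784 and 659 in shoot. Its first root array lay below all shoot arrays and the other 3 above them, and it was not called (0.50 ± 0.31), whereas without replicate 1 of wild type it was (1.18, adjusted p = 1.70e-06). The other 2 NAC5 probe sets were at 0.215 and 0.42 with all arrays and were not called.

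Of the MYB factors, MYB4, named for cold tolerance, was higher in root on both probe sets, at 3.10 ± 0.21 and 1.45. Its brighter probe set had 1103, 570.3, 797 and 566 in wild type root and 148, 51.8, 54.0 and 57.3 in wild type shoot, with replicate 1 the highest in each tissue and no overlap. MYBAS2 had 288, 761, 693 and 731 in wild type root and 79.9, 152, 148 and 112 in wild type shoot, a difference of 2.13 ± 0.20. Here replicate 1 was the lowest array of each tissue. MYBS3, which represses alpha-amylase genes when sugar is present and acts in cold, was lower in root on both probe sets, at -1.35 ± 0.17 and -0.57 ± 0.10. The brighter one had 945.5, 509.9, 461 and 532 in wild type root and 1355, 1535, 1759 and 1482 in wild type shoot, with no overlap. Its level in shoot, 1533 ± 168 (SD, n = 4), was the highest of any member probe set there. MYB2 was higher in root (0.82), and MYB3R-2 (0.09) and MPH1 (-0.46) were not called between wild type tissues.

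Of the WRKY factors, 2 were called between tissues. WRKY62, also named XB10 after its binding to the immune receptor XA21, had 100, 221, 287 and 283 in wild type root and 93.2, 53.0, 77.3 and 55.2 in wild type shoot, a difference of 1.41 ± 0.26 (adjusted p = 1.91e-05). The lowest root array was just above the highest shoot array, and both were replicate 1. WRKY24, a regulator of hormone signalling in aleurone cells, had 70.3, 77.7, 97.3 and 66.9 in wild type root and 133, 22.5, 17.0 and 18.9 in wild type shoot. The first shoot array was above all root arrays and the other 3 well below them, with a difference of 0.88 ± 0.31 (adjusted p = 0.0144), and 1.44 without replicate 1 of wild type, and 3 of the 32 single omissions ended the call. WRKY9 had 251 ± 29.2 in root and 247 ± 11.3 in shoot (SD, n = 4 each), a difference of 0.02 ± 0.08 that was not called.

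Among the bHLH factors, bHLH003, known as the immunity factor RAI1, had 556.5, 139, 162 and 192 in wild type root and 10.8, 2.2, 12.6 and 7.6 in wild type shoot, a difference of 3.32 ± 0.29 (adjusted p = 1.8e-11). Shoot was under 16 on all 4 arrays and root replicate 1 stood far above the other root arrays. bHLH175, known as IBH1, a repressor of cell elongation, had 3 probe sets that disagreed. One had 279, 555, 583 and 567.5 in wild type root and 1.0, 2.2, 9.0 and 9.3 in wild type shoot, a difference of 4.55 ± 0.22 (adjusted p = 7.29e-18). The second, the brightest bHLH probe set in shoot, had 212.0 ± 103 in root and 188 ± 32.5 in shoot (SD, n = 4 each; 0.08 ± 0.16, not called), and the third was dim in both. Which of them reads the IBH1 transcript was not tested. The tapetum factors TDR (bHLH5), EAT1 (bHLH141) and TIP2 (bHLH142), which act in developing anthers, were dim in these vegetative tissues. Their highest intensity on any of the 32 arrays was 7.3, 16.5 and 17.5. BU1 (bHLH172), a brassinosteroid response gene, did not exceed 15.8, one of the 2 bHLH004 probe sets was higher in root (1.63 ± 0.28), and LAX1 (bHLH123), a gene of axillary meristems, ranged over 11 to 28.5 in root and 9.2 to 41.7 in shoot.

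Of the 31 probe sets called in wild type, 29 (93.5%) had the same direction in AGR1/7, AGR1/8, AGR3/8 and wild type, beside 93.9% of all probe sets called. In 19 (61.3%) each of the 16 root arrays was above each of the 16 shoot arrays, beside 27.7% of all called, and in 1 (3.23%) each shoot array was above each root array, beside 23.3%. Members tested through their root level alone are among the 19. Of the members higher in root, 7 did not pass the filter in each tissue. A member tested through its root level had to be higher in root, so the 61.3% cannot be read as a root bias of the members. The 2 that changed direction were MYBS3 on its dimmer probe set and bZIP03, with differences of 0.14 and 0.01 in AGR3/8. In the remaining 11 of the 31 the tissues overlapped over the 32 arrays. With wild type replicate 1 left out, 30 were higher and 5 lower in root among 52 tested, beside 56.8% of all probe sets.

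Replicate 1 of wild type differed from the other arrays for many members. In root it lay outside the range of the other 15 arrays for 31 of 53 tested member probe sets (58.5%), against 39.6% of all tested probe sets, and was the highest for 14 and the lowest for 17. In shoot it lay outside for 23 of 45 (51.1%), against 19% of all tested, and was the highest for 21 and the lowest for 2. The next arrays were root AGR1/7 replicate 1 and root AGR3/8 replicate 3 with 14 each (26.4%), and shoot AGR3/8 replicate 2 with 11 (24.4%). Over all tested probe sets the shares of these arrays were 28.7%, 13.9% and 19.4%. In 14 of the 43 probe sets tested in both tissues (32.6%) both wild type replicate 1 arrays were outside, against 9.65% of all such probe sets. They were the highest in both tissues for 7 (3.45% of all) and the lowest in both for 2, MYBAS2 and bZIP37 (3.92% of all). For the other 5, bZIP28, WRKY51, MPH1 and 2 NAC5 probe sets, replicate 1 was the lowest in root and the highest in shoot (1.28% of all). Deviations of the root and shoot arrays from their group means correlated at 0.197 over all probe sets for wild type replicate 1, and at -0.0244 to 0.086 for the other 15 genotype and number pairs, which share array platform and probe brightness. The labels do not say whether root and shoot of 1 number came from 1 plant.

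WRKY71, a repressor of gibberellin signalling that also responds to pathogens, showed it most in root. It had 2082, 122, 219.9 and 107.5 in wild type root and 972.5, 154, 129 and 118 in wild type shoot. Replicate 1 exceeded every other array in its tissue, by 5.37-fold over the next root array, which was AGR1/7 replicate 1 at 388. The second WRKY71 probe set did the same, with 432 on root replicate 1 and 160.2 on shoot replicate 1 of wild type. WRKY76, a repressor of defence genes, had 77.5, 111.5, 170.3 and 171 in wild type root, where replicate 1 was the lowest of the 4, and 814, 113, 116 and 112 in wild type shoot, where it was far above the rest. bHLH148, a jasmonate and drought factor, had 479.5, 68.1, 145 and 53.9 in wild type root and 402, 92.6, 110.3 and 106 in wild type shoot. bZIP23, an abscisic acid response factor, had 921, 525, 434 and 453 in wild type root and 808, 446, 384 and 422 in wild type shoot. For both, replicate 1 was the highest array of its tissue. These 3 genes were chosen after their values were seen.

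**Figure D2:**
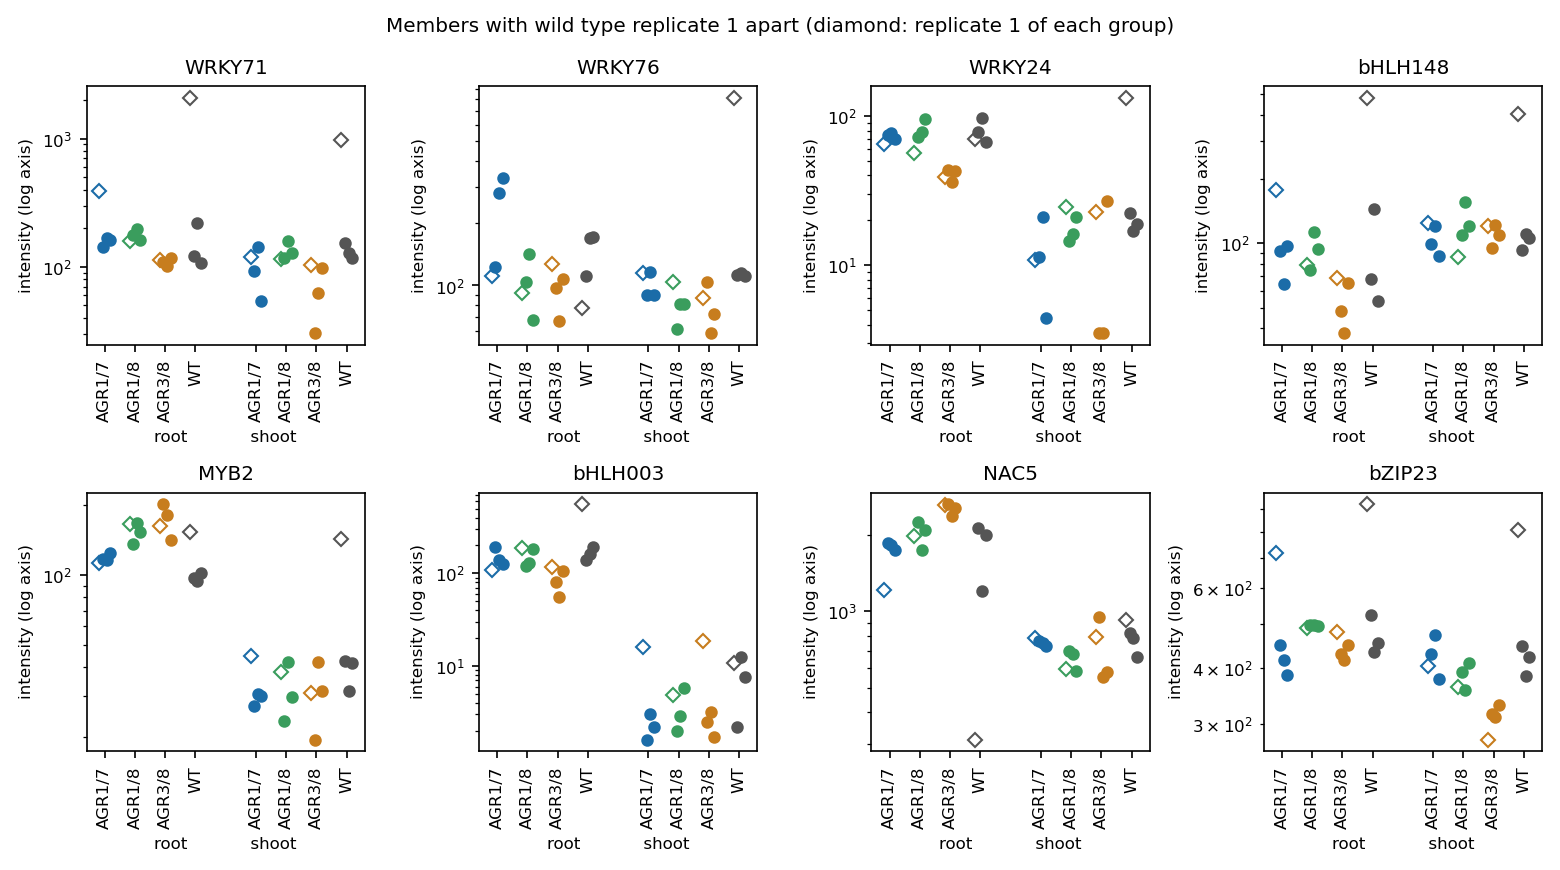
Intensity per array (log axis) of 8 member probe sets in root and shoot of AGR1/7, AGR1/8, AGR3/8 and wild type (WT), 4 arrays a group, with replicate 1 as an open diamond. The wild type diamond lies above its group in both tissues for WRKY71, bHLH148 and bZIP23, above it in shoot only for WRKY24 and WRKY76, and below it in root for NAC5.

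Leaving out wild type replicate 1 changed the size of some genotype differences. The median root difference over all tested members was 0.054 with it and 0.055 without it. For WRKY71 the mean of the 3 lines minus wild type was -0.82 ± 0.50 in root (adjusted p = 0.348) and -1.10 ± 0.38 in shoot (adjusted p = 0.174) with all arrays. Without replicate 1 of wild type it was 0.11 ± 0.22 and -0.42 ± 0.23 (adjusted p = 0.865 and 0.588). WRKY76 in shoot was -1.0 ± 0.33 with it and -0.33 ± 0.14 without it, and was not called in either fit.

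**Figure D3:**
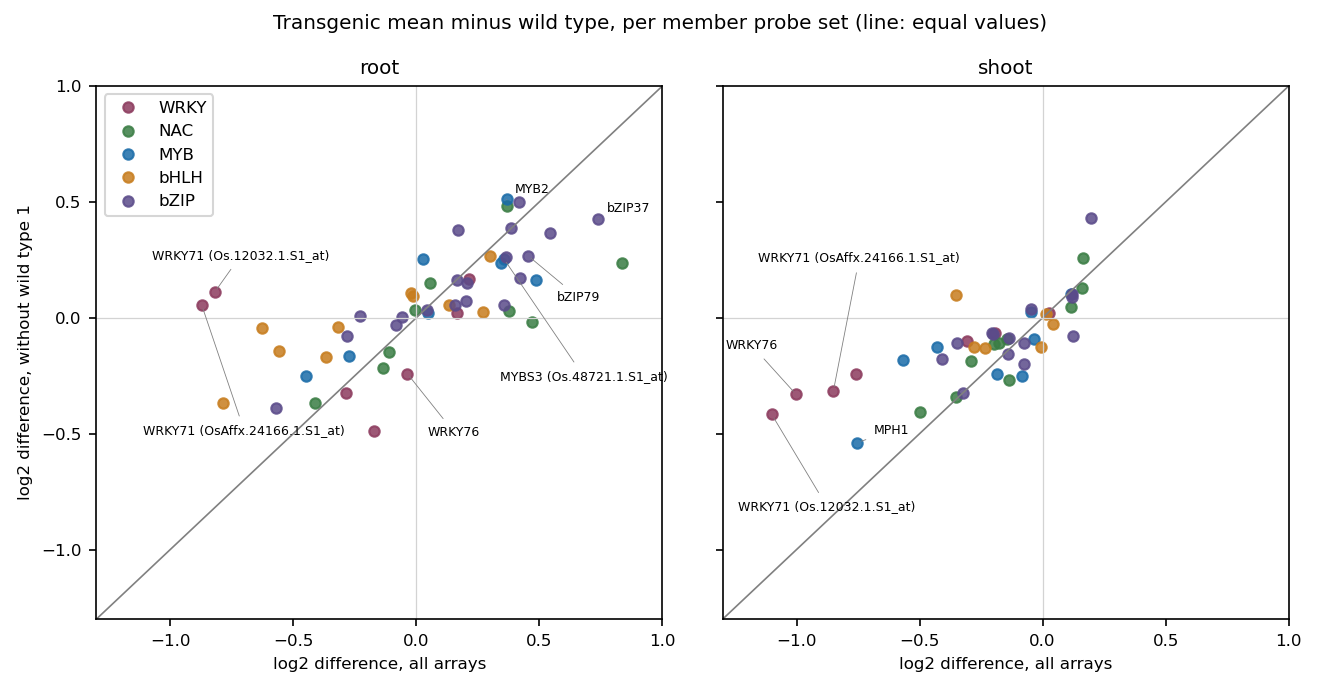
Mean of the 3 lines minus wild type for each tested member probe set in root (left) and shoot (right), with all arrays (x axis) and without wild type replicate 1 of both tissues (y axis), on the log2(intensity + 16) scale; points on the line are equal. The brighter WRKY71 probe set moves by the most in both tissues (root -0.82 with it and 0.11 without it), while MYB2 in root is larger without it (0.51 against 0.37).

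In roots of the transgenic lines, 3 of 53 member probe sets were higher than in wild type and none was lower (5.66%), beside 5.32% of all probe sets tested (3.28% higher and 2.04% lower). The share was close to that of the array as a whole. At an unadjusted p under 0.05 there were 18. Counts at that threshold, here and below, are given without the share of all probe sets at it. They therefore do not set the members apart from the array as a whole. The 3 were bZIP37, bZIP79 and 1 of the MYBS3 probe sets. By family, 0 of 7 WRKY, 0 of 9 NAC, 1 of 8 MYB, 0 of 10 bHLH and 2 of 19 bZIP probe sets were called by limma, against 2, 3, 5, 1 and 7 at an unadjusted p under 0.05. In shoots, 1 of 45 was called, MPH1, which was lower, beside 1.57% of all probe sets (0.913% higher and 0.658% lower), and 15 had an unadjusted p under 0.05. Of the 45, 34 were below 0, with a median of -0.18, beside a median near 0 over all probe sets tested. Without replicate 1 of wild type the member median was -0.11, beside -0.01 over all. The WRKY median was -0.76 in shoot, with 5 of 7 at an unadjusted p under 0.05 and 0 called by limma, and it was -0.24 without replicate 1 of wild type. The lines share their wild type arrays, so the comparisons that follow are not independent of each other.

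**Figure D4:**
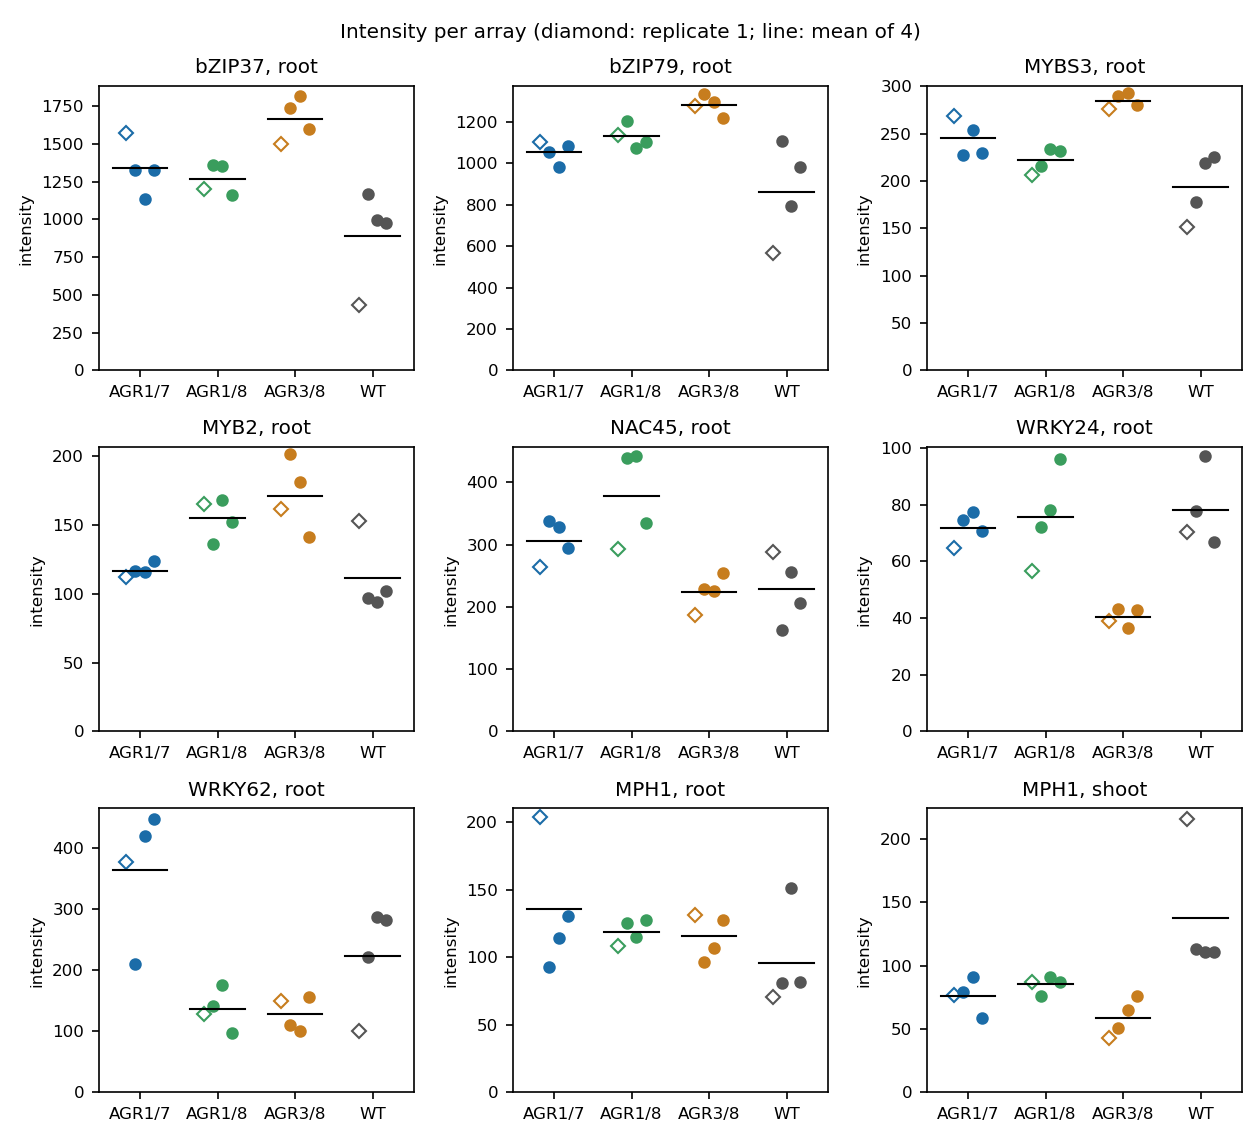
Intensity per array of 8 members called between genotypes or among lines, in AGR1/7, AGR1/8, AGR3/8 and wild type (WT), with replicate 1 as an open diamond and the mean of 4 arrays as a line; the MYBS3 panel shows its dimmer probe set. All line arrays lie above 3 of the 4 wild type arrays for bZIP37 in root, and all line arrays lie below the wild type arrays for MPH1 in shoot.

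bZIP37, a TGA factor with the alias TGAL6 (gene LOC9270267), had the largest called difference between the mean of the 3 lines and wild type in root. Its root intensity was 1572, 1328, 1135 and 1324 in AGR1/7, 1202, 1357, 1351 and 1159 in AGR1/8 and 1497, 1738, 1814 and 1599 in AGR3/8, against 430.5, 1165, 993 and 979 in wild type. Replicate 1 of wild type was the lowest array by far, and the second wild type array lay just above the lowest line array of each of AGR1/7 and AGR1/8, so the groups met there. The mean of the lines was higher by 0.74 ± 0.18 (adjusted p = 0.0270), and by 0.66, 0.59 and 0.97 in AGR1/7, AGR1/8 and AGR3/8, with adjusted p = 0.106, 0.195 and 0.0206 from limma, and 2 of the 16 single omissions ended the AGR3/8 call. Differences among the 3 lines were not called (adjusted p = 0.530). Without wild type replicate 1 the mean difference was 0.43 ± 0.09 (adjusted p = 0.0247), and leaving out any single root array kept it between 0.43 and 0.90 and called. In a limma fit that treats the arrays of a genotype as correlated, it was not called (adjusted p = 0.115). Wild type is a single genotype in that fit and arrays still count as units, so the lines were not tested as replicates. In shoot, bZIP37 was at 144, 215, 204 and 235 in AGR1/7, 213, 161, 201.5 and 217 in AGR1/8 and 204, 209.7, 191 and 193 in AGR3/8, against 112, 231, 225.5 and 177 in wild type. The groups overlapped and the mean difference of 0.12 ± 0.14 was not called, nor was it without replicate 1 of wild type (-0.08). The difference between the root and the shoot effect, 0.62, was not called either (adjusted p = 0.158). Its probe set is of a kind that can bind transcripts of several related genes.

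bZIP79, alias TGAL4, had 1103, 1054, 981 and 1086 in AGR1/7 roots, 1139, 1203, 1074 and 1103 in AGR1/8 roots and 1277, 1335, 1297 and 1217 in AGR3/8 roots, against 565, 1109, 795.5 and 981 in wild type roots. AGR3/8 lay above all wild type arrays, and all of AGR1/7 and part of AGR1/8 lay below the second wild type array. The mean difference was 0.45 ± 0.12 (adjusted p = 0.0371), but without wild type replicate 1 it was 0.27 and was not called (adjusted p = 0.0986), and 10 of the 16 single omissions ended the call. In AGR3/8 it was called with all arrays, at 0.61 ± 0.14 (adjusted p = 0.0270), and without that array, at 0.42, but 5 of the 16 single omissions ended the call.

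The 10 tested bZIP probe sets of genes with a TGA-type alias had mean root differences of 0.16 to 0.74, all above 0, with a median of 0.39 and 2 called. The other 9 bZIP probe sets had a median of -0.06, and all probe sets tested one of 0.03. With wild type replicate 1 left out, the 10 ranged over 0.05 to 0.50 with a median of 0.17 and 1 called, and the other 9 had a median of 0.01. By line, 9, 8 and 9 of the 10 were then above 0 in AGR1/7, AGR1/8 and AGR3/8. Of the other 9, 5, 7 and 4 were. In shoot, 8 of the 10 were tested, and 3 were above 0 with a median of -0.08. This grouping was made after the values were seen and is given as a description, without the share of all probe sets above 0. One of them, bZIP83 (TGAL11), was near the threshold at 0.54 (adjusted p = 0.0523), and at 0.37 without replicate 1 of wild type. In root it had 464, 297, 305 and 278 in AGR1/7, 273, 303, 309 and 274 in AGR1/8 and 296, 325, 294.5 and 301 in AGR3/8, against 138, 317, 178 and 227 in wild type, whose second array lay within the range of the lines.

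bZIP41 (TGAL5) differed in its effect between the tissues. Its root intensity was 287, 115, 119.8 and 125.5 in AGR1/7, 145, 132, 124 and 146 in AGR1/8 and 163, 139, 167 and 158 in AGR3/8, against 129, 111, 82.4 and 108 in wild type. Its shoot intensity was 35.5, 32, 27.8 and 35.7 in AGR1/7, 34.8, 35.7, 33.8 and 40.9 in AGR1/8 and 35.3, 34.6, 49.9 and 26.8 in AGR3/8, against 47.8, 49.5, 40.7 and 53.6 in wild type. The line arrays tended to the upper end in root and to the lower end in shoot, with overlap in both, and replicate 1 of AGR1/7 was far above all other root arrays. Neither mean difference was called alone, at 0.42 ± 0.17 in root and -0.32 ± 0.11 in shoot. The root effect minus the shoot effect was 0.74 ± 0.20 (adjusted p = 0.0488), and 25 of the 32 single omissions ended that call. MPH1 was the other member called for this difference, so 2 of 53 were called, both higher, beside 1.95% of all probe sets (1.16% higher and 0.797% lower), and 20 had an unadjusted p under 0.05. Neither was called by limma without replicate 1 of wild type.

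MPH1 (gene LOC4341803), a MYB-like factor named for its effect on plant height, was the 1 member called in shoot. Its shoot intensity was 76.5, 78.9, 91.2 and 58.9 in AGR1/7, 87.5, 76.2, 90.9 and 87.3 in AGR1/8 and 42.7, 50.7, 65.0 and 75.7 in AGR3/8, against 216, 113.5, 111 and 111 in wild type. All 12 line arrays lay below all 4 wild type arrays, of which replicate 1 stood far above the other 3. The mean of the lines minus wild type was -0.75 ± 0.15 (adjusted p = 0.0116). Without replicate 1 of wild type it was -0.54 ± 0.12 and still called (adjusted p = 0.0468), and it was called in every single omission of an array. In the limma fit that treats the arrays of a genotype as correlated, it was not called (adjusted p = 0.112). By line, the differences were -0.69, -0.55 and -1.01 in AGR1/7, AGR1/8 and AGR3/8, with adjusted p = 0.0606, 0.150 and 0.0111 from limma, and differences among the lines were not called by the F test (adjusted p = 0.297). In root, MPH1 had 204, 93.0, 115 and 131 in AGR1/7, 108, 125, 115 and 127 in AGR1/8 and 132, 96.7, 107 and 128 in AGR3/8, against 70.5, 80.7, 151 and 81.6 in wild type. The groups overlapped through the third wild type array, and the mean difference of 0.35 ± 0.17 was not called. The root effect minus the shoot effect was 1.10 ± 0.23 (adjusted p = 0.0131), and 0.78 without wild type replicate 1 of both tissues (adjusted p = 0.107). The 3′ to 5′ ratio of the GAPDH control probe sets, a sign of RNA quality, was 4.40 and 3.76 on shoot AGR3/8 replicates 2 and 3 and 2.51 to 2.73 on the wild type shoot arrays, and its part in the AGR3/8 value was not tested.

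MYBS3 was called in root on 1 of its 2 probe sets. That one had 268, 228, 254 and 230.0 in AGR1/7, 206, 216, 233 and 231 in AGR1/8 and 276, 289, 293 and 280.1 in AGR3/8, against 152, 178, 219 and 225 in wild type. AGR1/7 and AGR3/8 lay above the wild type arrays and AGR1/8 overlapped with them. The mean difference was 0.36 ± 0.09 (adjusted p = 0.0325), and 0.25 without wild type replicate 1 (adjusted p = 0.111). In AGR3/8 it was called with all arrays, at 0.54 ± 0.11 (adjusted p = 0.0140), and without that array, at 0.44. The brighter probe set of the gene was at 0.03 ± 0.17 (adjusted p = 0.945) in the same comparison, so the gene's 2 probe sets disagree. In that probe set, root replicate 1 of wild type and of AGR1/7 were high, at 945.5 and 1062, against 461 to 645 on the other 14 root arrays.

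AGR3/8 had the most member calls of the lines in root, 4 higher and 3 lower of 53 (13.2%), beside 5.41% of all probe sets (3.2% higher and 2.21% lower). This count rests on single arrays: it was 1 without AGR3/8 replicate 3 (1.12% of all probe sets) and 12 without wild type replicate 2 (9.3% of all). AGR1/8 had 1 higher, NAC45, beside 2.48% (1.25% higher and 1.23% lower), and AGR1/7 had 0 by limma, beside 2.47% (1.52% higher and 0.949% lower), with 9 at an unadjusted p under 0.05. In shoot, AGR3/8 had 1 lower, MPH1, beside 0.868% (0.456% higher and 0.412% lower). AGR1/7 and AGR1/8 had 0 in shoot by limma, beside 1.6% (0.873% higher and 0.724% lower) and 1.82% (1.11% higher and 0.708% lower), with 9 and 6 at an unadjusted p under 0.05. Whether AGR3/8 had more calls than the other lines was not tested as a count. Differences among the 3 lines were called for 2 members in root, WRKY62 and WRKY24, beside 2.99% of all probe sets. They were called for 6 without wild type replicate 1 (5.6% of all) and for 1 without AGR1/7 replicate 3 (2.12% of all). In shoot they were called for 0 of 45 by limma, beside 2.26%, and 7 had an unadjusted p under 0.05.

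WRKY24 was lower in AGR3/8 roots. It had 64.8, 74.5, 77.5 and 70.7 in AGR1/7, 56.6, 72.0, 78.0 and 96.0 in AGR1/8 and 39.0, 43.3, 36.4 and 42.8 in AGR3/8, against 70.3, 77.7, 97.3 and 66.9 in wild type. All AGR3/8 arrays lay below all arrays of the other 3 groups, which overlapped with each other. AGR3/8 minus wild type was -0.73 ± 0.13 (adjusted p = 0.00839), against -0.09 in AGR1/7 and -0.04 in AGR1/8, and the lines differed by the F test (adjusted p = 0.00806). The AGR3/8 difference without replicate 1 of wild type was -0.77 (adjusted p = 0.0104).

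WRKY62 separated the lines differently. It had 377, 211, 419 and 448 in AGR1/7 roots, 129, 142, 176 and 96.7 in AGR1/8 roots and 149, 109.7, 100 and 157 in AGR3/8 roots, against 100, 221, 287 and 283 in wild type roots. AGR1/7 lay above AGR1/8 and AGR3/8 on all arrays, and wild type overlapped with all 3 lines. The lines differed (adjusted p = 0.0155, a call that 2 of the 16 single omissions ended), while no line was called against wild type by limma with all arrays, at 0.71 ± 0.29, -0.58 ± 0.29 and -0.64 ± 0.29. Leaving out replicate 1 of wild type, which was as low as the lowest AGR3/8 array, gave -0.96 ± 0.23 in AGR3/8 (adjusted p = 0.0363). WRKY76, chosen after its values were seen, had a like order in root, with 112, 123, 282 and 333 in AGR1/7, 91.8, 104, 143 and 68.0 in AGR1/8 and 127, 97.4, 66.9 and 108 in AGR3/8, against the wild type root values given above. Its last 2 AGR1/7 arrays were high and the first 2 were not, and its lines did not pass the F test (adjusted p = 0.219).

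MYB2, a factor tied to salt, cold and drought tolerance, had 112, 117, 116 and 124 in AGR1/7 roots, 165.5, 136, 168 and 152 in AGR1/8 roots and 162, 201.5, 181 and 141 in AGR3/8 roots, against 153, 96.7, 93.8 and 102 in wild type roots. Replicate 1 of wild type lay within the ranges of AGR1/8 and AGR3/8, and the other 3 wild type arrays were below all 12 line arrays. With all arrays AGR3/8 was called, at 0.57 ± 0.14 (adjusted p = 0.0276), and the mean of the lines was not, at 0.37 ± 0.11 (adjusted p = 0.0640). Without replicate 1 of wild type the mean difference was 0.51 ± 0.09 (adjusted p = 0.00933), with 0.23, 0.59 and 0.71 in AGR1/7, AGR1/8 and AGR3/8. MYB2 was then 1 of 2 member probe sets called in the root mean, with bZIP37, beside 2.05% of all probe sets. MYB2 was chosen after its values were seen.

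NAC45 was higher in AGR1/8 roots. It had 264, 338, 328 and 294 in AGR1/7, 293, 439.9, 443 and 334.5 in AGR1/8 and 186, 228, 226 and 255 in AGR3/8, against 288, 164, 256 and 206 in wild type. AGR1/8 lay above all wild type arrays, AGR1/7 overlapped with 1 of them and AGR3/8 lay within their range. The AGR1/8 difference was 0.70 ± 0.17 (adjusted p = 0.0336), and 0.81 ± 0.16 without wild type replicate 1, and 5 of the 16 single omissions ended the call. In AGR1/7 it was 0.42 and in AGR3/8 -0.01, and the lines did not pass the F test (adjusted p = 0.0639).

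The other 2 members called in AGR3/8 roots were lower. NAC68, also called OsNAC4 and known for a part in hypersensitive cell death, had 123, 91.4, 86.4 and 133 in AGR3/8 roots against 223, 142.5, 326 and 160.5 in wild type roots, which did not overlap. The difference was -0.83 ± 0.22 (adjusted p = 0.0389), and 9 of the 16 single omissions ended the call, that of wild type replicate 1 among them (-0.79, adjusted p = 0.0833). In AGR1/7 and AGR1/8 roots NAC68 was at -0.19 and -0.21, not called, and the lines did not pass the F test (adjusted p = 0.177). bHLH003 had 117, 80.7, 56.2 and 106 in AGR3/8 roots against 556.5, 139, 162 and 192 in wild type roots, again with no overlap. The difference was -1.21 ± 0.32 (adjusted p = 0.0411), but -0.80 without replicate 1 of wild type (adjusted p = 0.0585), and 11 of the 16 single omissions ended the call. In AGR1/7 and AGR1/8 roots bHLH003 was also below wild type, at -0.63 and -0.51, not called. Its lines did not pass the F test (adjusted p = 0.409).

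The root difference of the brightest NAC5 probe set rested on replicate 1 of wild type. This probe set had 1213, 1856, 1827 and 1734 in AGR1/7, 1969, 2251, 1746 and 2092 in AGR1/8 and 2614, 2633, 2372 and 2552 in AGR3/8, against the wild type values given above. AGR3/8 was above all wild type arrays, the first array of AGR1/7 was near the third of wild type, and the mean difference was 0.84 ± 0.33 (adjusted p = 0.137), and 0.24 without replicate 1. With all arrays, the other 2 NAC5 probe sets were at 0.47 and 0.38 in root and at -0.50 and -0.29 in shoot, and were not called. bHLH063, known as IRO3, a negative regulator of the iron deficiency response, had 60.1, 54.0, 55.9 and 39.9 in AGR1/7 roots, 147, 71.9, 75.2 and 168 in AGR1/8 roots and 80.4, 74.7, 106 and 98.0 in AGR3/8 roots, against 56.9, 72.8, 53.5 and 66.7 in wild type roots. Replicates 1 and 4 of AGR1/8 stood above all other root arrays, and the lines were called different only without wild type replicate 1 (adjusted p = 0.0474, and 0.0642 with it). bHLH063 was chosen after its values were seen.

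Genes of pathways in which these factors act were taken as lists. Beside the counts below, 5.32% of all probe sets were called in root (3.28% higher, 2.04% lower). In shoot the share was 1.57% (0.913% higher, 0.658% lower). Without replicate 1 of wild type the shares were 2.05% in root (1.23% higher, 0.821% lower) and 0.928% in shoot (0.559% higher, 0.37% lower). Of the probe sets in a list of kinases (SAPK), receptors (PYL) and phosphatases (PP2C) taken by name for abscisic acid signalling, 3 were higher and 2 lower of 78 in root, and 0 higher and 4 lower of 74 in shoot, with medians of 0.04 and -0.05. The list holds PP2C genes of all kinds, 66 of the 78 in root, whereas only some PP2C phosphatases are known to act on SAPK kinases, so it is not a list of that pathway alone. Without the PP2C genes, 2 were higher and 0 lower of 12 in root, and 0 higher and 1 lower of 12 in shoot. SAPK9, a kinase that phosphorylates abscisic acid response bZIP factors, had 383.7, 458.2 and 733.6 as the lowest, median and highest of 12 line roots, against 257.7, 262.4, 235.7 and 298.3 in wild type roots. The groups did not overlap, and the mean difference was 0.79 ± 0.10 (adjusted p = 0.000526), and 0.78 without wild type replicate 1. PP2C33, a gene of the protein phosphatase 2C family, was lower in root, at -0.60 (adjusted p = 0.0304). PP2C48 and PP2C35 were lower in shoot, at -0.64 and -0.54. None of these 3 was called without wild type replicate 1, where 2 were higher and 0 lower in root and 0 higher and 1 lower in shoot.

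Of the stress proteins known as targets of bZIP, NAC and MYB factors, 0 were higher and 1 lower of 12 in root, and 0 higher and 3 lower of 12 in shoot, with medians of -0.01 and -0.26. LEA19, a late embryogenesis abundant protein, had 11.2, 66.5 and 114.1 as the lowest, median and highest of 12 line shoots, against 356.9, 138.5, 283.8 and 163.1 in wild type shoots. The groups did not overlap, with a difference of -1.63 ± 0.29 (adjusted p = 0.00523), and -1.41 without wild type replicate 1 (adjusted p = 0.0290). salT, a salt-induced lectin, was lower in shoot on both of its probe sets, at -1.16 and -0.94, and was not called without that replicate (adjusted p = 0.0961 and 0.0918). In root, Dhn1, a dehydrin, was lower at -0.64 (adjusted p = 0.0172), and this too was not called without it (adjusted p = 0.0637). Without the replicate, 0 were called in root by limma and 1 was lower in shoot.

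Of the defence genes tied to WRKY factors, 0 were higher and 3 lower of 49 in root, and 0 higher and 1 lower of 47 in shoot, with medians of -0.13 and -0.20. The chitinase gene Cht1 had 120.9, 201.25 and 273.8 as the lowest, median and highest of 12 line shoots, against 518.2, 294.5, 490.2 and 625.0 in wild type shoots. The groups did not overlap, with a difference of -1.20 ± 0.14 (adjusted p = 0.000123), and -1.15 without wild type replicate 1. Cht2, another chitinase, was lower in root on both probe sets, at -1.28 ± 0.32 and -1.10 ± 0.30, and 1 of them was called without that replicate.

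Of the iron genes tied to bHLH factors, 1 was higher and 1 lower of 33 in root, tom2 at 0.46 and NRAMP3 at -0.35. Neither was called without wild type replicate 1 (adjusted p = 0.0803 and 0.0963). In shoot, 0 of 33 were called by limma (3 at an unadjusted p under 0.05). Of the phosphate genes tied to MYB factors, 0 of 29 were called in root and 0 of 28 in shoot by limma (5 and 7 at an unadjusted p under 0.05). Of the secondary wall genes tied to NAC and MYB factors, 1 was higher and 5 lower of 35 in root, and 0 higher and 2 lower of 33 in shoot, with medians of -0.35 and -0.03. Without wild type replicate 1, 0 were higher and 2 lower of 36 in root, 4CL-3 and CAD2, with a median of -0.22, and the calls of LAC15 (higher), LAC3, 4CL4 and CESA4 were lost. 4CL-3, a 4-coumarate:CoA ligase gene of lignin synthesis, was lower in root, with 351.9, 434.95 and 582.2 as the lowest, median and highest of 12 line arrays, against 935.6, 695.2, 958.9 and 850.8 in wild type. The groups did not overlap, with a difference of -0.90 ± 0.08 (adjusted p = 1.51e-05), and -0.86 without wild type replicate 1. CESA4, a cellulose synthase of secondary walls, was lower at -1.04 (adjusted p = 0.0460) and not called without it (adjusted p = 0.193), and in shoot CAD2 and 4CL-3 were lower at -0.72 and -0.53 and not called without it. The medians over all probe sets tested were 0.03 in root and near 0 in shoot, and the shares of all probe sets called are the 5.32% and 1.57% given above.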

How the data were processed

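The authors deposited 1 linear intensity per probe set and array, scaled to the same trimmed mean on every array, as the values themselves show. Per the labels' protocols, RNA was extracted with TRI reagent, cleaned on RNeasy columns, labelled with biotin and hybridised to 1-colour Affymetrix rice arrays. Which software summarised the probes was not given in the sources used here. Probe sets were named through the platform annotation and the rice gene table of assembly ASM3414082v1, used for names only, and 22436 probe sets had 1 gene, 95 several and 34663 none. Probe sets with several genes were left out, and 187 control probe sets were removed. Intensities were analysed as log2(intensity + 16) after the dimmest 33.3% of probe sets was dropped, with limma 3.58.1 in R 4.3.3 (lmFit, then eBayes with an intensity trend), within each tissue for genotype and over all 32 arrays for tissue and for the difference of effects between tissues. The fits were also run on simulated arrays with independent noise. No outlying array and no random spread between lines was simulated, so that run does not bear on wild type replicate 1 or on the lines as units. Named were up to 3 called members in each direction per family and tissue, up to 2 per line, those with the widest tissue or line differences, the brightest of each family, and MPH1 and bZIP37. Of each pathway list, up to 2 called genes per tissue were named. The members and lists were chosen with earlier results of these data known. Samples were analysed as unpaired by replicate number. Of same-numbered pairs, 7 of 24 in root and 1 of 24 in shoot had deviations that correlated above 0.1, up to 0.363 in root and 0.162 in shoot. Whether the numbers pair the samples was not tested. Nothing says whether replicates came from separate cultures, so p-values measure the spread between these arrays. Probe sets shared within a gene family can bind related transcripts. The number of arrays limits the precision.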

Additional observations from a re-analysis of the deposited data

Results flagged for a closer look

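In 184 groups of 4 arrays, for 23 named probe sets, 24 groups held an array whose gap to its nearest neighbour was above Dixon's critical value for 4 arrays, which chance exceeds in about 1 of 20 groups. In 14 of the 24 that array was replicate 1 of wild type. In wild type root it was high for WRKY71 (2082), MYBS3 on its brighter probe set (945.5), bHLH003 (556.5), bHLH175 on the probe set with like levels in both tissues (366) and bZIP52 (1069.3), and low for bHLH175 on the root-biased probe set (279.1) and MYBAS2 (287.7). In wild type shoot it was high for WRKY71 (972.5), WRKY24 (132.7), MPH1 (215.8), MYB4 (147.6), NAC6 (1269.7), bZIP39 (815.0) and bZIP52 (51.7).

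The other 10 were spread over several arrays. Replicate 1 of AGR1/7 was high in root for WRKY71 (387.6) and bZIP41 (286.7), and in shoot for bHLH003 (16). MPH1 was high in wild type root replicate 3 (150.9). In AGR3/8 shoots bHLH003 was high in replicate 1 (18.4), bZIP79 was high in replicate 4 (9.7) and bHLH175 was low in replicate 2 (143.9). NAC2 was low in AGR3/8 root replicate 4 (157.2), bZIP39 in AGR1/8 root replicate 4 (573.9) and MYBAS2 in AGR1/7 shoot replicate 4 (91.9).

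The effect of the lines differed between root and shoot for MPH1 (limma adjusted p = 0.0131) and bZIP41 (adjusted p = 0.0488), and neither passed without replicate 1 of wild type. The 3 lines differed in root for WRKY24 (limma adjusted p = 0.00806) and WRKY62 (adjusted p = 0.0155).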

How the results depend on the processing

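Of 1232 results for named genes under the alternatives, 1127 kept direction and side of the threshold, 98 lost the call, 3 gained one and 4 changed sign. The 4 are WRKY71 in the root mean (0.11) and bZIP37 in the shoot mean (-0.0796), each without wild type replicate 1 of its tissue and without that of both, and 0 of them were called in either fit. Over single omissions these 2 ranged over -1.25 to 0.11 and -0.0796 to 0.23. The counts of called members that moved by over 1.5 times follow, each with the share of all probe sets called under the same setting. Constants of 4 and 64 moved none. Without a filter the counts were 2 in shoot AGR3/8 (0.273%), 1 among shoot lines (0.75%) and 1 for the difference of effects (0.883%). Quantile normalization gave 2 in shoot AGR1/7 (2.27%) and 1 for the difference of effects (2.14%). Array weights gave 2 in root AGR1/8 (3.23%), 11 in root AGR3/8 (8.55%), 9 among root lines (9.73%) and 3 in shoot AGR1/7 (2.88%). The replicate block gave 1 in shoot AGR1/7 (1.91%), 2 in shoot AGR3/8 (2.31%), 1 among shoot lines (3.33%) and 4 for the difference of effects (2.17%). With the arrays of a genotype treated as correlated, the counts were 0 in the root mean (0.359%), 0 in the shoot mean (0.302%) and 1 for the difference of effects (1.09%). One fit of all 32 arrays gave 7 in the root mean (10.2%), 3 in root AGR1/7 (6.74%), 3 in root AGR1/8 (4.06%), 2 in shoot AGR3/8 (1.79%) and 2 among shoot lines (3.22%). Without replicate 1 of wild type in both tissues, an alternative chosen after seeing the data, the counts were 2 in root AGR1/8 (2.43%), 6 among root lines (5.6%), 2 among shoot lines (3.16%) and 0 for the difference of effects (0.74%). The cause was not tested for any of these.

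Leaving out each array in turn, the counts ranged over 1 to 7 in the root mean (2.05% to 7.93% of all probe sets), 0 to 1 in root AGR1/7 (1.01% to 2.87%), 0 to 3 in root AGR1/8 (1.68% to 3.49%), 1 to 12 in root AGR3/8 (1.12% to 9.3%), 1 to 6 among root lines (1.92% to 5.6%), 1 to 1 in the shoot mean (0.587% to 2.67%), 0 to 1 in shoot AGR1/7 (0.818% to 1.87%), 0 to 0 in shoot AGR1/8 (0.601% to 2.59%), 1 to 2 in shoot AGR3/8 (0.281% to 3.7%), 0 to 2 among shoot lines (0.679% to 4.65%), 1 to 9 for the difference of effects (0.821% to 4.2%) and 31 to 35 between wild type tissues (56.7% to 59.8%). Leaving out root wild type replicate 2 gave 7 in the root mean, 12 in root AGR3/8 and 9 for the difference of effects. Values under 16, which are 47.7% to 52.3% of each array, carry little information on level.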
